A study of Mus musculus with 2 samples.

Results

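Keratin-associated proteins are the matrix of the hair shaft, and their genes carry the symbol Krtap in the mouse. All features whose symbol starts with Krtap were taken, 57 of the 31053 in the count tables, and each had a position in the GENCODE vM21 annotation of the GRCm38 assembly. They were followed in 2 droplet single-cell libraries of whole back skin from C57BL/6 mice aged 12 months. One library came from a wild-type (WT) mouse and the other from a mouse with the genotype Card14 KI +/+ (Card14KI), a model of the scaling skin disease pityriasis rubra pilaris. With 1 library for each genotype, the effect of the genotype and that of the library cannot be told apart. No test was possible, and the intervals given are 95% intervals that cover counting error only.

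In the hair cortex, hair keratins form filaments that are embedded in keratin-associated proteins and cross-linked to them through cysteine. The proteins are sorted by composition into high sulphur, ultra-high sulphur and high glycine-tyrosine groups. Their genes switch on late, in cells that move up from the hair matrix and harden, and the factors HOXC13 and FOXN1 are known regulators of shaft genes.

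Depth was similar in the libraries: 5016 WT barcodes held 54816411 unique molecular identifiers (UMIs, each counted as 1 captured RNA molecule), and 3348 Card14KI barcodes held 41460580. After filters, 4161 WT and 2835 Card14KI cells remained, with a median of 7344 and 6875 UMIs, and 2 barcode sequences occurred in both libraries. Hair cells were gated by 17 hair shaft or 9 inner root sheath markers, none of them a Krtap gene, with at least 3 markers and 10 UMIs. The gate took 29 shaft and 191 sheath cells in WT, and 1 and 1 in Card14KI. With 2 markers and 5 UMIs it took 52 and 348 in WT against 21 and 1, and with 5 markers and 30 UMIs 11 and 158 against 0 and 1. Fewer hair cells and less RNA per hair cell cannot be told apart in library sums.

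The genes form 2 large blocks: 23 lie on chromosome 11 between 99550130 and 99993994, and 24 on chromosome 16 between 88610705 and 89571183. The chromosome 16 block gave 80.1% of the WT Krtap UMIs and the chromosome 11 block 19.9%. The Krtap5 genes on chromosome 7 gave 1 UMI and the 3 genes on chromosome 10 gave 2, while both Krtap28 genes on chromosome 1 gave none. Each member has its longest coding sequence in a single exon, of 57 to 502 codons.

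Promoter sequence was read for 51 members from RefSeq (GRCm38.p6), from 250 bases before to 50 bases after the start. The motif TATAAA lay on the gene's strand 40 to 16 bases before the start in 31 of the 51, against 2.22% of 27025 listed promoters. On either strand anywhere in the 300 bases it was found in 42 of the 51 and in 14.2% of all. A HOXC13-type motif, TTTATN or TTAATN followed by AA, AG, GA or GG, was found on either strand in 26 of the 51 and in 19.4% of all. A match describes the letters and is not a measured binding site.

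The 100 bases before the start are shown for members that carry the results, with TATAAA in capitals. Krtap8-1 (chr16:89487953-89488052), Krtap16-3 (chr16:88962874-88962973) and Krtap22-2 (chr16:89010760-89010859) were among the most abundant, and Krtap19-4 (chr16:88885090-88885189) had 492 of its 493 UMIs in 1 barcode. Krtap3-2 (chr11:99556854-99556953) and Krtap17-1 (chr11:99993995-99994094) had UMIs outside the hair cortex signal. All 6 lie on the minus strand, and sequences read 5′ to 3′ toward the gene.
Krtap8-1: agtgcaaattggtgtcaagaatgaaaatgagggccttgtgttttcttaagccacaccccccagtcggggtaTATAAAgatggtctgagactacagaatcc
Krtap16-3: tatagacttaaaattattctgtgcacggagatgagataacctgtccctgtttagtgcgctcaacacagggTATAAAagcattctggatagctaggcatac
Krtap22-2: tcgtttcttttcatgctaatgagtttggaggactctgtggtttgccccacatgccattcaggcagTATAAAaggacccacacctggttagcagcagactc
Krtap19-4: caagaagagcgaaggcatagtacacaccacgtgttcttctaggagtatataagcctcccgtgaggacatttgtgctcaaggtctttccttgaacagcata
Krtap3-2: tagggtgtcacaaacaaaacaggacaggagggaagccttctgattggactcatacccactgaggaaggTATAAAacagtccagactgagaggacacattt
Krtap17-1: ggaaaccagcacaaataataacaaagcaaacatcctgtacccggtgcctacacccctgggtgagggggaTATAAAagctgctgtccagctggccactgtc
Of these, TATAAA began 29 bases before the start in Krtap8-1, 30 in Krtap16-3, 35 in Krtap22-2, 32 in Krtap3-2 and 31 in Krtap17-1, and it was not in the window of Krtap19-4.

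Nearly all Krtap RNA lay in 3 WT barcodes. The WT library held 131999 Krtap UMIs, and 128997 of them (97.7%, exact Clopper-Pearson interval 97.6 to 97.8%) were in 3 shaft-gated barcodes with at least 1000 Krtap UMIs each, here called Krtap-rich. These barcodes were chosen by their Krtap sums, so their level is a description. Barcode 1 held 72095 Krtap UMIs, which were 48.7% of its 148164 UMIs, and barcode 2 held 55529, or 37.3% of 148736. Barcode 3 was shallow, with 1373 Krtap UMIs of 5534 (24.8%) over 888 genes. The next barcode, barcode 4, held 134 Krtap UMIs, so the 3 stood well apart from the rest.

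The Krtap-rich barcodes also held the late hair keratins, which were part of the gate. Of the cortex keratins, Krt33a had 5967, 7770 and 85 UMIs in barcodes 1 to 3, which was 98.0% of its WT total, and Krt83 had 4855, 5822 and 43 (97.6%). Krt39, a hair keratin outside the gate, had 61, 48 and 17 UMIs, or 85.1% of its total. The gate fixed the presence of Krt33a and Krt83, so among these only Krt39 checks the shaft label independently. Clustering placed the 3 barcodes with cells led by Krt17, Pinlyp and Krt75 and not in a hair shaft cluster.

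In all, 42 members had a UMI in WT and 15 had none in either library. Of the 57, 10 had 1 to 9 UMIs over both libraries, 32 had at least 10 and 19 had at least 1000. The Krtap-rich barcodes held at least 90% of the WT UMIs of 25 of the 32 members, 50 to 90% of 4 and less than that of 3. The share of all features at these limits was not computed. Compared with the other WT barcodes, 30 of 31 members were at least 2-fold higher there, beside 4.16% of all features. The Krtap-rich barcodes were chosen for their Krtap sum, so nothing is read from either count.

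The high glycine-tyrosine members are small proteins whose genes all lie on chromosome 16. With glycine and tyrosine codons at 35% or more of the coding sequence and cysteine codons under 30%, 15 members belonged here, 13 had a UMI, and together they gave 47.2% of WT Krtap UMIs. Krtap8-1 led the whole family with 12167, 14480 and 175 UMIs in barcodes 1 to 3. Krtap16-3 had 7959, 2343 and 53, and Krtap22-2 had 5956, 4079 and 61. Each of these was high in both deep barcodes. UMIs of a 3′ assay carry no term for transcript length, so these are comparisons of molecules captured.

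The members under both codon limits are called high sulphur here, 21 members with 51.4% of WT Krtap UMIs. The name covers a wide range: Krtap15 had 4% cysteine codons, fewer than Krtap8-1 of the other group (4.92%), and Krtap3-1 had 20.4%. Krtap15 had 9648, 12468 and 135 UMIs in barcodes 1 to 3, and its neighbour Krtap14 had 4237, 2919 and 276. Their gene spans overlap on opposite strands, but their exons share 0 bases. Krtap7-1, whose glycine and tyrosine codons (29.9%) fell under the 35% limit of the other group, had 4168, 4599 and 67 UMIs. On chromosome 11, Krtap3-1 had 3633, 3691 and 53, and Krtap9-3 had 2787, 2051 and 70. The 5 members with the most UMIs, all on chromosome 16 (Krtap8-1, Krtap15, Krtap16-3, Krtap22-2 and Krtap7-1), made up 60.1% of the WT family sum.

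The ultra-high sulphur group, with cysteine codons at 30% or more, held 21 members but 1.47% of WT Krtap UMIs. Krtap1-3 gave most of it, with 572, 985 and 46 UMIs in barcodes 1 to 3. The 8 Krtap4 genes gave 117 WT UMIs in all, and 73 of these were in the shallow barcode 3 against 2 and 20 in barcodes 1 and 2. Ultra-high sulphur members were 0.804% of the Krtap UMIs of barcode 1, 1.81% of barcode 2 and 10.1% of barcode 3, so barcode 3 stood apart from the deep pair.

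**Figure D1:**
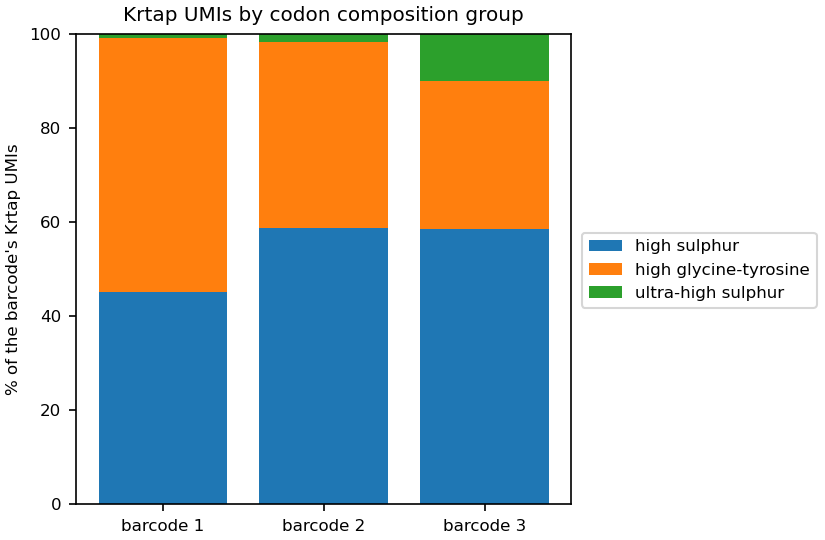
Share of each Krtap-rich barcode's Krtap UMIs (vertical axis, %) by codon composition group in barcodes 1 to 3 of the WT library. High glycine-tyrosine members took 54.1%, 39.5% and 31.4%, and ultra-high sulphur members 0.804%, 1.81% and 10.1%.

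Among the members, those that differed between the deep barcodes were mostly high glycine-tyrosine genes. Of 25 members with at least 10 UMIs in barcodes 1 and 2 together, scaled to each barcode's Krtap UMIs and with a 0 set to 3 UMIs, 11 were at least 2-fold higher in barcode 1. Another 2 were at least 2-fold higher in barcode 2 and 12 lay within 2-fold. Of the 11, all but Krtap2-4 were high glycine-tyrosine members. Krtap19-1 had 704 UMIs in barcode 1 and 1 in barcode 2, Krtap19-4 had 492 and 0, and Krtap19-3 had 2252 and 51. Krtap19-1 to Krtap19-5 together made up 8.15% of the Krtap UMIs of barcode 1 and 0.189% of barcode 2. Krtap6-1 was 11.2-fold higher in barcode 1 (interval 9.65 to 13.0), from 2731 against 188 UMIs. Krtap2-4, a high sulphur member on chromosome 11, was 11.3-fold higher (7.17 to 18.7), from 293 against 20 UMIs. Krtap1-3 went the other way, 2.24-fold higher in barcode 2 (2.01 to 2.48). These are 2 barcodes of 1 animal, so the contrast has no replicate. The same share over all features was not computed for these barcodes, so the counts describe the members only.

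**Figure D2:**
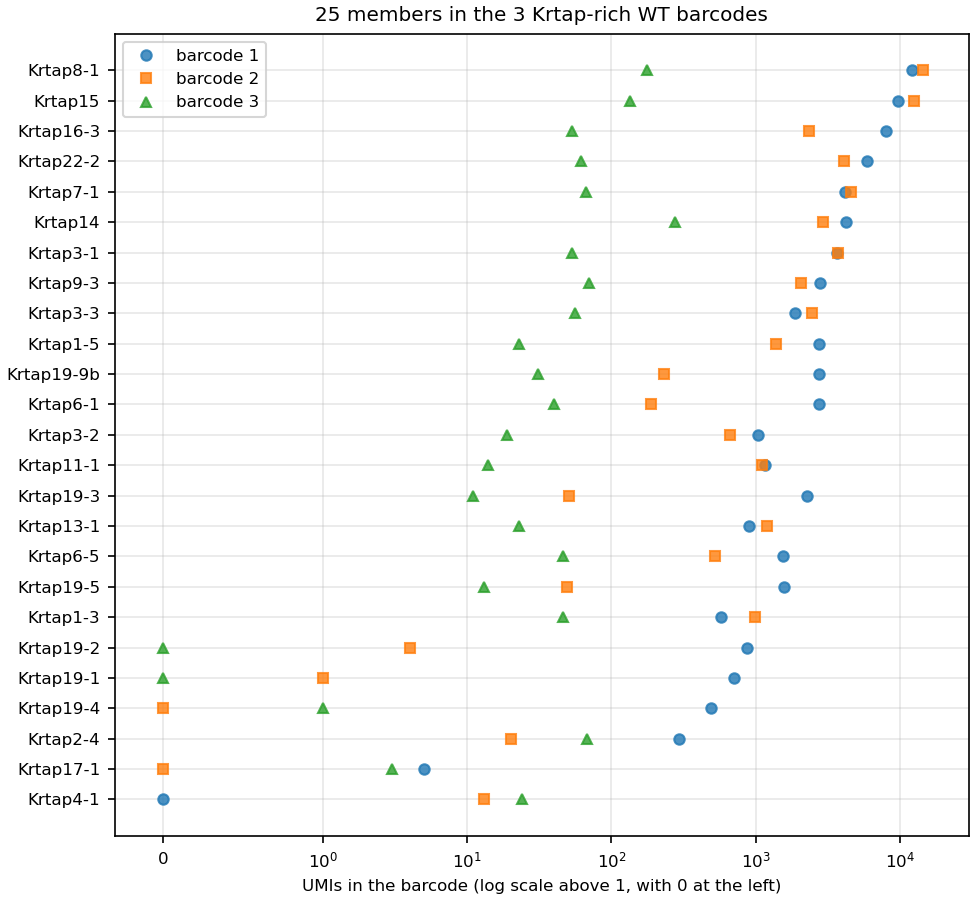
UMIs (horizontal axis, log scale above 1 with 0 at the left) of the 25 members with the most UMIs in barcodes 1, 2 and 3. Some members, such as Krtap8-1 and Krtap3-1, had similar sums in barcodes 1 and 2, and others did not. Among the latter, Krtap19-1, Krtap19-2 and Krtap19-4 had 704, 864 and 492 UMIs in barcode 1 and 1, 4 and 0 in barcode 2.

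Several members are near-identical copies, which matters for counting. At 90% identity or more over the coding sequence there were 8 pairs among 13 members. Krtap3-2 and Krtap3-3 had identical coding sequences (100%), and Krtap6-1 and Krtap6-5 were 97.9% identical. Krtap4-1 and Krtap4-2 were 95.7% identical, and Krtap16-3 was 90.4% identical to Krtap19-1. The last 200 bases of the transcripts, where 3′ reads gather, were 48.5% identical for Krtap3-2 and Krtap3-3 and 52.5% for Krtap6-1 and Krtap6-5. How reads shared by such copies were counted is not stated in the labels or headers, so the split between copies is uncertain. Of the 15 members at 0 UMIs, 2 were in a near-identical pair.

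Barcode 4, also shaft-gated, carried other members. It held 134 Krtap UMIs of 75257, of which 93 were Krtap17-1, an ultra-high sulphur member, 15 were Krtap24-1 and 14 were Krtap26-1. In barcodes 1 to 3, Krtap17-1 had 5, 0 and 3 UMIs, Krtap24-1 had none and Krtap26-1 had 3, 0 and 0. Krtap8-1, the leader of the Krtap-rich barcodes, had 4 UMIs in barcode 4. These 3 members thus had their highest sums where the cortex members were nearly missing. Krtap24-1 and Krtap26-1 fall outside the 25 most abundant members and were singled out after their values were seen.

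Barcode 4 differed in hair keratins as well. It held 373 UMIs of Krt32 and 74 of Krt82, which are known as keratins of the shaft cuticle, and 111 of Krt35, an early shaft keratin. Barcodes 1 and 2 had 0 UMIs of all 3 genes, and barcode 3 had 1 of Krt82. Krt31, Krt33a, Krt34 and Krt81 had 0 UMIs in barcode 4. It also held 2883 UMIs of sheath markers, among them 483 of Krt72 and 881 of Krt28, beside 3579 of shaft markers; whether more than 1 cell lay in this droplet was not tested.

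**Figure D3:**
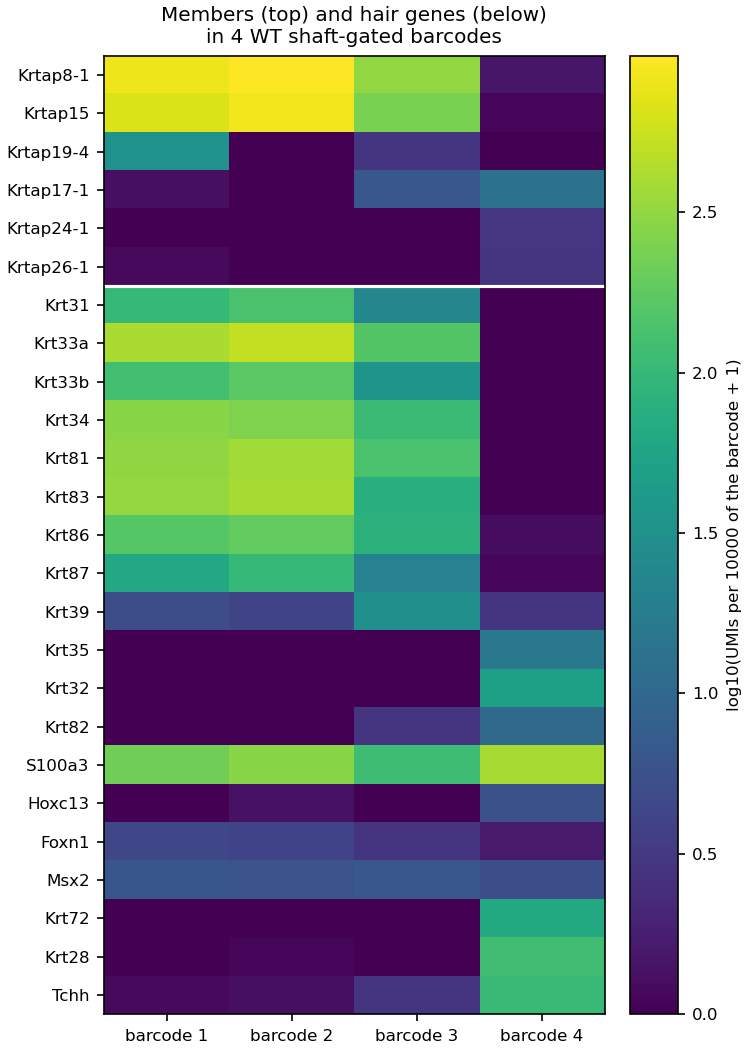
Level of 6 members (top) and 19 hair genes (below the white line) in barcodes 1 to 4, as log10 of UMIs per 10000 of the barcode plus 1 (colour). Krtap17-1, Krtap24-1 and Krtap26-1 stand out in barcode 4 together with Krt32, Krt82 and Krt72, and Krtap8-1 and the keratins Krt31, Krt33a, Krt33b and Krt34 in barcodes 1 to 3.

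Regulators of shaft genes differed among themselves in the Krtap-rich barcodes, which held 0.552% of all WT UMIs. Hoxc13, a gate marker, had 1578 UMIs in WT, with 0, 6 and 0 in the Krtap-rich barcodes. The 26 other shaft-gated cells, chosen in part by this marker, held 1116. Foxn1, outside the gate, had 50, 45 and 1 UMIs in the Krtap-rich barcodes, 25.7% of its 373 in WT. Its level was 317 CPM (UMIs per 1000000 of the class or library) there, against 12.8 in the other shaft-gated and 20.1 in the sheath-gated cells. Msx2, a gate marker, stood at 506 CPM against 47.8 and 177, Dlx3 at 443 against 65.9 and 215, Prdm1 at 185 against 39.9 and 34.0, and Ovol1 at 427 against 85.6 and 107. Of 11 hair transcription factors, 5 were higher in the Krtap-rich barcodes than in both other hair classes. Another 3 (Lef1, Gata3 and Sox21) had 0 UMIs in the Krtap-rich barcodes. The share of all features higher in this way was not computed, so the count describes these genes only. Gata3 stood at 150 CPM in the other shaft-gated and 362 CPM in the sheath-gated cells. Cux1 and Vdr were lower in the Krtap-rich barcodes, at 6.61 CPM against 114 and 312, and at 19.8 against 346 and 104. Msx2, Dlx3, Prdm1, Lef1, Sox21 and Vdr were named after their values were seen. Of the sheath genes, Tchh had 382454 WT UMIs with 3, 5 and 1 in the Krtap-rich barcodes. Of 8 type I hair keratins with at least 10 UMIs, 5 had most of their WT UMIs there, as did 4 of 6 type II keratins. Among 10 cross-linking and structural genes only S100a3, a cysteine-rich calcium-binding protein used in the gate, did so (51.0%).

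The 26 other shaft-gated and 191 sheath-gated WT cells held few Krtap UMIs. Shaft-gated cells outside the Krtap-rich barcodes had 189 and sheath-gated cells had 353, beside 521 in fibroblast-like cells, which should lack the family. A Krtap UMI was found in 115 of 191 sheath cells (60.2%) and in 455 of 2067 fibroblast-like cells (22.0%), at median depths of 29698 and 7204 UMIs. With each cell thinned to 2000 UMIs the shares were 7.98% (interval 4.53 to 12.8%) and 6.21% (5.17 to 7.38%). The thinned shares had overlapping intervals. The family level over all UMIs was 45.5 CPM in sheath cells (40.8 to 50.5) and 32.2 CPM in fibroblast-like cells (29.5 to 35.1). Of the 353 sheath UMIs, 65 lay in 1 cell and 43, all of Krtap17-1, in another. Single cells thus weighed on the sheath level, and the intervals do not cover this. In the other shaft-gated cells the level was 100.4 CPM, and barcode 4 held 134 of the 189 UMIs. Cells with 3 or more Krtap UMIs were 18.8% of sheath and 0.290% of fibroblast-like cells, without thinning.

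Fibroblast-like cells showed the family at a low ratio to the Krtap-rich sum. Over 23 members, they held a median of 3.73 UMIs per 1000 in the Krtap-rich barcodes, from 0 to 7.57. In Card14KI, where no Krtap-rich barcode was found, 0 of 1344 fibroblast-like cells held a Krtap UMI, which allows a share of up to 0.223% of cells with a UMI, taking 3 counts as the limit of a 0. In WT immune cells 124 of 742 (16.7%) held one, against 0 of 330 in Card14KI.

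Of 18 members, 5 reached 2-fold the fibroblast level in sheath cells, beside 15.7% of all features. No trait of the family is read from this count. Krtap17-1 had 50 UMIs in sheath cells, 43 of them in 1 cell, against 1 in fibroblast-like cells. Krtap13-1 had 13 UMIs, 4.52-fold the fibroblast level in CPM, and Krtap9-3 had 11 (3.28-fold). Krtap7-1 was 2.78-fold and Krtap3-2 2.46-fold, with 12 and 13 UMIs. For Krtap13-1, Krtap9-3 and Krtap7-1, 6, 6 and 5 of the UMIs lay in 1 cell. Krtap8-1 and Krtap15, with 76 and 38 UMIs in sheath cells, were 1.25-fold and 0.954-fold the fibroblast level.

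Barcodes with fewer than 500 genes, which a cell filter removes, held little of the family. In WT, 609 such barcodes held 222 Krtap UMIs, 0.168% of the family (interval 0.147 to 0.192%), beside 1.32% of all UMIs. Without the Krtap-rich barcodes the share was 7.40%. A Krtap UMI was found in 86 of the 609 (14.1%), at a median depth of 710 UMIs. The family level was 306 CPM, and 25 members were seen. Of these UMIs, 108 lay in 2 shaft-gated barcodes, with 63 of 785 UMIs and 45 of 626 UMIs from Krtap genes. These resembled barcode 3 in being shallow with a high Krtap share (8.03% and 7.19%).

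Single members were spread unevenly over the low-gene barcodes. Against the other WT barcodes, 3 of 31 members were at least 2-fold higher there, beside 4.1% of all features. Those were Krtap17-1, Krtap24-1 and Krtap26-1, with 7, 1 and 1 UMIs, named after their values were seen. Without the Krtap-rich barcodes 22 of 23 were, beside 4.27%. The Krtap-rich barcodes were chosen by their Krtap sums and left out of the comparison side only, so nothing is read from this count. With them left out, Krtap7-1 had 34.2% of its 76 UMIs in low-gene barcodes, Krtap13-1 24.5% of 49 and Krtap3-2 0.314% of 955. In Card14KI, 0 of 393 low-gene barcodes held a Krtap UMI.

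Between the libraries, the family was far lower in Card14KI. The sum was 131999 UMIs in WT (2408 CPM) and 418 in Card14KI (10.1 CPM), 239-fold higher in WT (interval 217 to 264). Without the 3 Krtap-rich barcodes WT held 3002 UMIs and the ratio was 5.46 (4.93 to 6.07). Without the top barcode of each library it was 129. The size of the difference therefore rested on the 3 barcodes. The remaining WT sum still included UMIs in fibroblast-like and immune cells and was not corrected for this background.

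Among members with at least 10 UMIs, 31 of 32 were at least 2-fold lower in Card14KI, beside 11.7% of all features, and none was 2-fold higher, beside 3.9%. Without the Krtap-rich barcodes 21 of 23 were lower, beside 11.7%. Of the 32, 26 had 0 UMIs in Card14KI and so reached 10 UMIs through WT alone, which all but fixed their direction. These counts describe the members and give no support beyond the sums.

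Of the 25 most abundant members, 20 had no UMI in Card14KI. Against a floor of 3 UMIs in the library, Krtap8-1 was at least 6875-fold lower there and Krtap4-1, the lowest of the 20, at least 10.6-fold lower. These bounds count the Krtap-rich barcodes. Only 6 members had a Card14KI UMI: Krtap3-2 (277), Krtap17-1 (70), Krtap3-3 (37), Krtap11-1 (30), Krtap13-1 (2) and Krtap4-2 (2). They were the only members for which the Card14KI cells could be described.

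**Figure D4:**
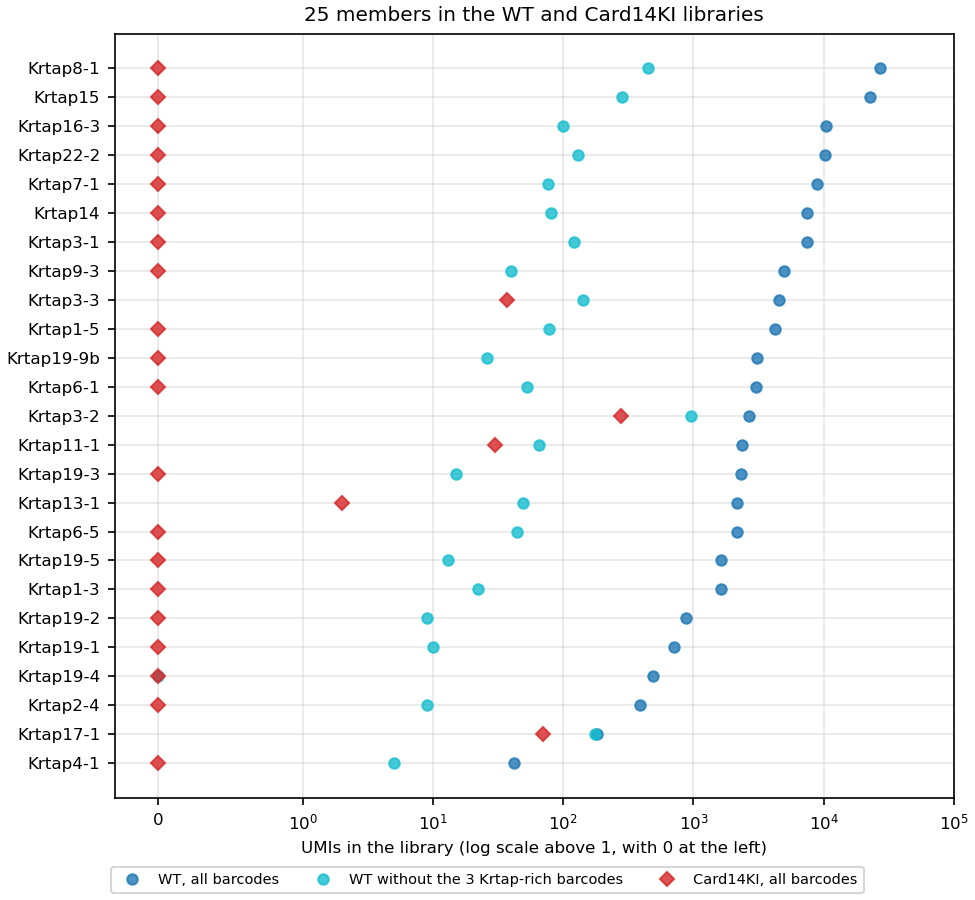
Library sums of the 25 most abundant members in UMIs (horizontal axis, log scale above 1 with 0 at the left), for WT, WT without the 3 Krtap-rich barcodes, and Card14KI. In Card14KI, 20 members stood at 0 and Krtap3-2 was highest with 277 UMIs.

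Krtap3-2, a high sulphur member, gave most of the Card14KI sum of the family, 277 of 418 UMIs, and most of these lay in epidermal clusters. Suprabasal keratinocyte-like clusters held 841 of its UMIs in WT (26 of 175 cells) and 248 in Card14KI (19 of 322 cells). In the cluster led by Lce1a1, Lce1b and Lce1a2, genes of the late cornified envelope, the level was 719 CPM in WT and 899 in Card14KI. These came from 247 UMIs in 12 cells and 224 in 11 cells, with a WT to Card14KI ratio of 0.80 (0.665 to 0.963). The highest WT cells held 99 and 92 of these UMIs and the highest Card14KI cells 65 and 56. The interval does not cover this spread between cells. Fibroblast-like cells in WT had 0.680 CPM, from 11 UMIs in 0.532% of cells, so this signal was far above the background class.

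In the neighbouring cluster, led by Crct1, Krtdap and Wfdc21, Krtap3-2 differed between the libraries. It had 594 UMIs in 96 WT cells and 24 in 149 Card14KI cells, or 190 and 5.82 CPM, 32.6-fold higher in WT (21.7 to 51.3). The UMIs lay in few cells: 18 WT cells and 11 Card14KI cells had one, and 11 and 1 had at least 5. In the cluster led by Lce1a1, 5 WT and 7 Card14KI cells had at least 5. The ratio in each cluster thus depends on how such cells were divided between the clusters. Within the cluster led by Crct1, the highest WT cells held 94 and 91 and the highest Card14KI cells 9 and 3. The cluster led by Krt77, Krt1 and Calm4 had 0 UMIs of Krtap3-2 in 67 WT and 162 Card14KI cells. Over suprabasal clusters as a whole, 3 of 4 members tested were at least 2-fold lower in Card14KI, beside 4.35% of all features. Those were Krtap3-2, Krtap8-1 and Krtap15, and Krtap3-3 was the exception. Krtap8-1 and Krtap15 had 0 UMIs in Card14KI and so reached 10 UMIs through WT alone, which all but fixed their direction. Nothing is read from this count. In WT suprabasal clusters Krtap8-1 stood at 5.03 CPM and Krtap15 at 5.24 CPM, beside 7.85 and 5.13 CPM in fibroblast-like cells. Whether these UMIs are background was not tested.

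Krtap3-3, whose coding sequence is the same as that of Krtap3-2, was far less abundant in these clusters. It had 26 UMIs in WT and 37 in Card14KI, 5.45 and 4.77 CPM, and the ratio of 1.14 (0.664 to 1.94) included 1. In the Krtap-rich barcodes the order was the reverse, with 4400 UMIs of Krtap3-3 against 1727 of Krtap3-2. In suprabasal cells Krtap3-2 led by 841 to 26 in WT and by 248 to 37 in Card14KI. As counted, the order of the 2 copies differed between the Krtap-rich barcodes and the suprabasal clusters of the same WT library, with the split between copies uncertain as above.

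Krtap11-1, a high sulphur member, was seen in sebocyte-like cells of both libraries. Sebocyte-like clusters held 18 of its UMIs in WT (14 of 180 cells, 7.78%) and 18 in Card14KI (16 of 173 cells, 9.25%), at median depths of 24788 and 23293. The levels were 3.67 and 3.75 CPM, with a ratio of 0.977 (0.480 to 1.99). No sebocyte-like cell held more than 3. The signal was not confined to these clusters. Basal keratinocyte-like cells led by Akr1c18, Fxyd3 and Fgfbp1 stood at 2.69 CPM in WT (6 UMIs) and 2.75 CPM in Card14KI (5 UMIs). Upper hair follicle cells held 2 UMIs in WT and 4 in Card14KI. In fibroblast-like cells Krtap11-1 had 8 UMIs in WT (0.387% of cells, 0.494 CPM at a median depth of 7204) and 0 in Card14KI. Its library fold of 59.4 (41.5 to 88.3) was 1.65 (1.05 to 2.63) without the Krtap-rich barcodes.

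Counting all barcodes, Krtap17-1 was the closest between the libraries of the 32 members with at least 10 UMIs, with 183 UMIs in WT and 70 in Card14KI, 1.98-fold higher CPM in WT (1.49 to 2.64). Without the Krtap-rich barcodes its ratio was 1.90, and Krtap11-1 with 1.65 was closer. It rested on single cells: 93 WT UMIs were in barcode 4 and 43 in 1 sheath-gated cell. In Card14KI, 59 of the 70 were in 1 cell of the Krt17, Pinlyp and Krt75 cluster, with 66431 UMIs and 3 UMIs of shaft markers, so that it did not pass the gate.

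**Figure D5:**
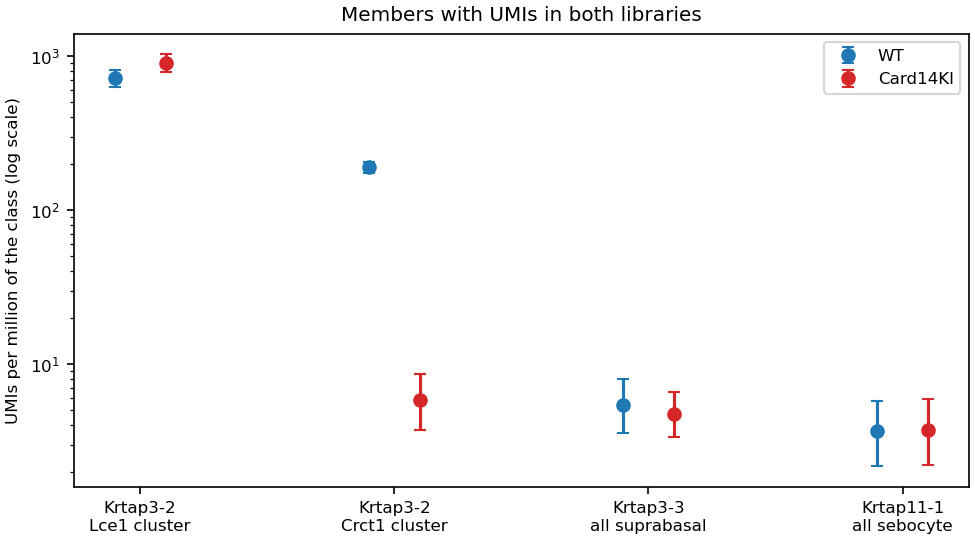
Level of Krtap3-2, Krtap3-3 and Krtap11-1 in the cell classes where both libraries had UMIs, in CPM of the class (log scale), with exact Poisson 95% intervals. Krtap3-2 stood at 719 and 899 in the Lce1 cluster and at 190 and 5.82 in the Crct1 cluster in WT and Card14KI.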

How the data were processed

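Whole back skin of 1 WT and 1 Card14KI mouse was profiled; per the labels' protocols, tissue was digested for 73 min and libraries were made with a 10x Genomics 3′ kit. The deposited values are raw UMI counts per gene and barcode for barcodes the authors' pipeline called as cells. Cell Ranger 6.0.2 with mm10 is named per the submitters' processing notes, and 5.0.0 per the file headers; no annotation release is named in either.

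Members are all Krtap symbols; the members and gene lists were chosen with earlier results of these data known. The text names the 25 members with the most UMIs, the 5 highest in Card14KI, and hair genes from fixed lists. One shaft marker of 18, Krt85, was not in the tables. Barcodes with under 500 genes or 20% or more mitochondrial UMIs were set apart. Scrublet's automatic threshold marked 2 and 4 cells, taken as not having worked, so the 174 and 78 cells with the highest scores were removed. Both libraries were clustered in scanpy 1.11.5 without Krtap genes (2000 variable genes, 30 components, 20 neighbours, Leiden resolution 1, 32 clusters), and clusters were named from fixed markers, so names can differ from those of the study.

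Sums have exact Poisson, ratios conditional binomial and shares Clopper-Pearson intervals at 95%, with no test. A fold against 0 uses a floor of 3 UMIs in the library. Composition and identity were computed from GENCODE coding sequences by codon and global alignment, in place of the proteins planned. Gate, interval and fold code was tested on simulated data.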

Additional observations from a re-analysis of the deposited data

How the results depend on the processing

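With 1 library for each genotype no library could be left out. The family ratio of WT to Card14KI was 239, and it was 129 without the top barcode of each library and 5.46 without the 3 Krtap-rich barcodes, an alternative chosen after seeing the data. Counting only barcodes with 500 or more genes gave 235, and scaling to UMIs outside Krtap and hair keratin genes gave 239.7. The share of WT Krtap UMIs in hair-gated cells was 98.1%; it was 98.5% with 2 markers and 5 UMIs, 97.1% with 1000 genes and 10% mitochondrial UMIs, 98.3% with no cell filter, 0.326% by hair-named clusters and 18.1% without the Krtap-rich barcodes. The share in low-gene barcodes was 0.0288% at 300 genes, 1.29% at 1000 genes and 7.40% without the Krtap-rich barcodes. With 3 or more Krtap UMIs required, positive cells were 0.290% of fibroblast-like and 18.9% of suprabasal WT cells (22.0% and 51.4% with 1 or more), and with thinning 6.21% and 14.5%. Without the Krtap-rich barcodes the fold was 2.62 for Krtap3-2, 2.90 for Krtap3-3 and 18.6 for Krtap13-1, the last with 2 Card14KI UMIs. No paired analysis was possible because each genotype has 1 library and no result comes from a test.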

Other observations

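Other features lie inside the 2 Krtap gene blocks without a Krtap symbol, and so fall outside the family as counted here. Of 13 with a UMI, 8 had at least 10 in WT, and the Krtap-rich barcodes held at least 90% of the UMIs of 5 of these. Gm10229 had 6839 WT UMIs, 98.9% of them in those barcodes, and Gm10228 had 896 (98.3%). In Card14KI the 13 features had 1 UMI in all, against 9957 in WT. They were singled out after their values were seen, and a count of Krtap symbols leaves them out. The share of all features at the 90% limit was not computed.

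Suprabasal keratinocyte-like cells with Krtap3-2 also held Lce1 RNA. In WT, 16 cells with 5 or more Krtap3-2 UMIs had a median of 20.8% of their UMIs from 14 Lce1 genes, against 0.0065% in 149 cells with none. In Card14KI, 8 such cells had a median of 29.9%, against 0.0044% in 303 cells with none. Some cells without Krtap3-2 reached 43.0% in WT and 39.4% in Card14KI, so cells with high Lce1 did not all hold Krtap3-2.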
